A study of Mus musculus with 6 samples.

Results

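The genes described here are 34 genes of 1 response in mouse embryonic stem cells: targets of the hypoxia-inducible factors (HIF), with the enzymes and transporters of glycolysis among them. They were chosen by name. The brightest probe set of each gene, by mean over the 6 arrays, stood for it, and 32 of the 34 were in the table of 18194 genes. Expression of Gpi1, the second enzyme of glycolysis, was not analysed here, and the probe sets of Bnip3l are annotated to that gene and its pseudogene Bnip3l-ps together, so they are given as probe sets. The 32 genes were read as 9 glycolytic enzymes, 8 genes of glucose supply and control of glycolysis, and 15 other HIF targets.

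The cells were mouse embryonic stem cells, 129/B6 hybrid by strain, from 3 clones. Clone 3031 has wild-type Yaf2 (Yaf2wt), and Yaf2 is knocked down in clones 3086 and 3087 (Yaf2kd). Every clone was measured once without 4-hydroxytamoxifen (OHT-) and once after 24 hours at 0.8 µM of it (OHT+), a treatment given to deplete Rybp. The groups are therefore Yaf2wt OHT- and Yaf2wt OHT+ (1 array each), with Yaf2kd OHT- and Yaf2kd OHT+ (2 arrays each). Rybp and Yaf2 are related subunits of Polycomb repressive complex 1. All clones share the medium, with serum and leukaemia inhibitory factor, and grew on irradiated fibroblasts or on gelatin; the labels do not say which culture had which surface. The wild type is 1 clone, so the knockdown and other differences between clones cannot be told apart. The labels name no treated cells that keep Rybp, so OHT itself and the loss of Rybp cannot be told apart either. No group was labelled as hypoxic.

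With oxygen present, the prolyl hydroxylases Egln1, Egln2 and Egln3 mark the HIF alpha subunits for degradation through Vhl. When oxygen is short, the alpha subunit is kept, pairs with Arnt and binds hypoxia response elements, which raises glucose uptake, glycolysis, lactate export and vessel growth and limits pyruvate entry into mitochondria. Embryonic stem cells are known for running glycolysis at a high rate even with oxygen present.

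The core of the hypoxia response element is ACGTG or GCGTG. RefSeq promoter windows (GRCm38.p6, the 250 bases before an annotated start) were matched by symbol for 30 of the members, which have 44 windows. Ndrg1, Plod2, Slc2a3 and Bnip3l had none. Some windows of Ak4 and of Aldoa overlap and repeat the same matches, so the windows are not independent. Both strands were searched for both motifs. ACGTG was in 45.5% of the member windows and in 16.6% of all 32851 windows, GCGTG in 54.5% and 28.2%, and at least 1 of them in 34 of 44 (77.3%) and in 38.6%. The member windows were also richer in G and C (median 61.6% against 52.4%), and the part of base composition in the counts was not tested. The windows of Gpi1, Gys1 and Tpi1 hold neither motif. A match is a string of letters, not a measured binding site. The windows below are shown because P4ha2 and Pfkp were among the members that differed most with OHT, and Slc2a1 and Ankrd37 among those that differed between the clones. Capitals mark ACGTG or GCGTG on either strand, so that CACGC is GCGTG read on the other strand.
P4ha2 (chr11:54100674-54100923, plus strand): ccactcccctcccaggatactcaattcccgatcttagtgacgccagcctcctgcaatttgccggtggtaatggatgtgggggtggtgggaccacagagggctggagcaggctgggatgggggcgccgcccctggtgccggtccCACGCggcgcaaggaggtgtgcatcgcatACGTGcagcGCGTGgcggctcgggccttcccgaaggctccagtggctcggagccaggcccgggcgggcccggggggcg
Pfkp (chr13:6648772-6649021, minus strand): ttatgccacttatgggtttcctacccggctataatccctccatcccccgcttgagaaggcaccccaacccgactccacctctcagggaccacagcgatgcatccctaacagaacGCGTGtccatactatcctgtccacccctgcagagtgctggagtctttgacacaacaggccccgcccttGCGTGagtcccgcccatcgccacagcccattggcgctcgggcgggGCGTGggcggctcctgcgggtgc
Slc2a1 (chr4:119108495-119108744, plus strand): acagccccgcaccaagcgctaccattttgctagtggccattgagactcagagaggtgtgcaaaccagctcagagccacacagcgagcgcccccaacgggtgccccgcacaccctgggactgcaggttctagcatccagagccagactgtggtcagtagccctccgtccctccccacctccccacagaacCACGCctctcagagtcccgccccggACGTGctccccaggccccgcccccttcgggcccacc
Ankrd37 (chr8:45999851-46000100, minus strand): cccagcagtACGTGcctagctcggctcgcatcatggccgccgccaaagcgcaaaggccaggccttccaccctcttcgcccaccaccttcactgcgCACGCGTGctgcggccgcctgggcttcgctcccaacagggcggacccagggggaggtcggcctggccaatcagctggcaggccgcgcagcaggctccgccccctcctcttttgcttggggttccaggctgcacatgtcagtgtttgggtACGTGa
The P4ha2 window holds ACGTG 78 bases before the start and GCGTG at 69 and, on the other strand, at 107. Pfkp has GCGTG at 136, 68 and 23 bases and no ACGTG in this window. Slc2a1 has ACGTG at 36 and GCGTG on the other strand at 61. Ankrd37 has ACGTG at 241 and 6, and the capital run in its middle is GCGTG on both strands, overlapping, at 152 and 155.

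The arrays separate the groups by the targeted genes. The brightest Yaf2 probe set was at 816 and 769 on the Yaf2wt arrays and between 238 and 297 on the 4 Yaf2kd arrays. The 2 probe sets for Rybp also match its pseudogene Rybp-ps: 1 was between 1785 and 2262 without OHT and between 53.9 and 102 with it, and the other between 179.9 and 336 without OHT and between 2796 and 3444 with it. They mark the treated arrays and give no measure of intact Rybp RNA. The 8 embryonic stem cell markers examined, among them Pou5f1, Sox2 and Nanog, were at 1901 or above on every array. All 32 members had a mean above 110, the limit under which the lowest 40% of genes by mean intensity lie and replicate spread is large. Car9 is just above it and dim on the Yaf2wt arrays. The median SD between the Yaf2kd clones (log2) was 0.166 for the members, 0.146 for genes above the limit and 0.625 below it. Intensities are linear and, apart from the summed fibroblast markers below, compared only within a probe set. Differences are log2 with the standard error of a limma fit over all genes, and a gene is called at an adjusted p under 0.05.

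The Yaf2 comparison asks how the knockdown clones differ from the wild-type clone. Without OHT no member was called, but 21 of the 32 were higher in both Yaf2kd clones than in clone 3031, where 34.9% of the 10916 genes above the dim limit were. With OHT it was 20 of 32 against 41.7%. In both states together it was 17 of 32 (53.1%) against 20.6%, and 2 of 32 were lower in both clones in both states against 14.8%. The 17 are the enzymes Hk1, Hk2, Pfkl, Aldoc, Tpi1 and Pgam1, then Slc2a1, Slc16a3 and Ak4, and of the other HIF targets Egln3, Bnip3, Higd1a, Adm, Car9, P4ha1, Ankrd37 and Mxi1. The 2 lower genes are Vegfa and Kdm3a. With the mean of all probe sets in place of the brightest it was 18 of 32 against 19.2%, without Hk1 and Higd1a and with Slc2a3, Pfkfb3 and Ndrg1, and 4 were lower, against 14.5%, with Pdk1 and Plod2 added. Clone 3086 alone had 21 members higher in both states (65.6%, against 36.2% of genes) and clone 3087 alone 23 (71.9%, against 35.3%). Both states compare the same 3 clones, and both clones share the Yaf2wt arrays, so these counts are not independent of each other.

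The test called 0 of 18194 genes (0%) in this comparison without OHT and 0 (0%) with it. At an unadjusted p under 0.05 limma had 812 genes without OHT, of which 2 were members (Slc2a1 and Pfkl), and 1028 with OHT, of which 3 were (Ankrd37, P4ha1 and Pfkl). With the dim genes left out 1 gene passed with OHT, and it was no member. The median difference of the members was 0.21 without OHT and 0.17 with it, against 0.014 and 0.047 over all genes. By list it was 0.21 and 0.17 for the glycolytic enzymes, 0.18 and 0.10 for glucose supply and control, and 0.26 and 0.22 for the other HIF targets.

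**Figure D1:**
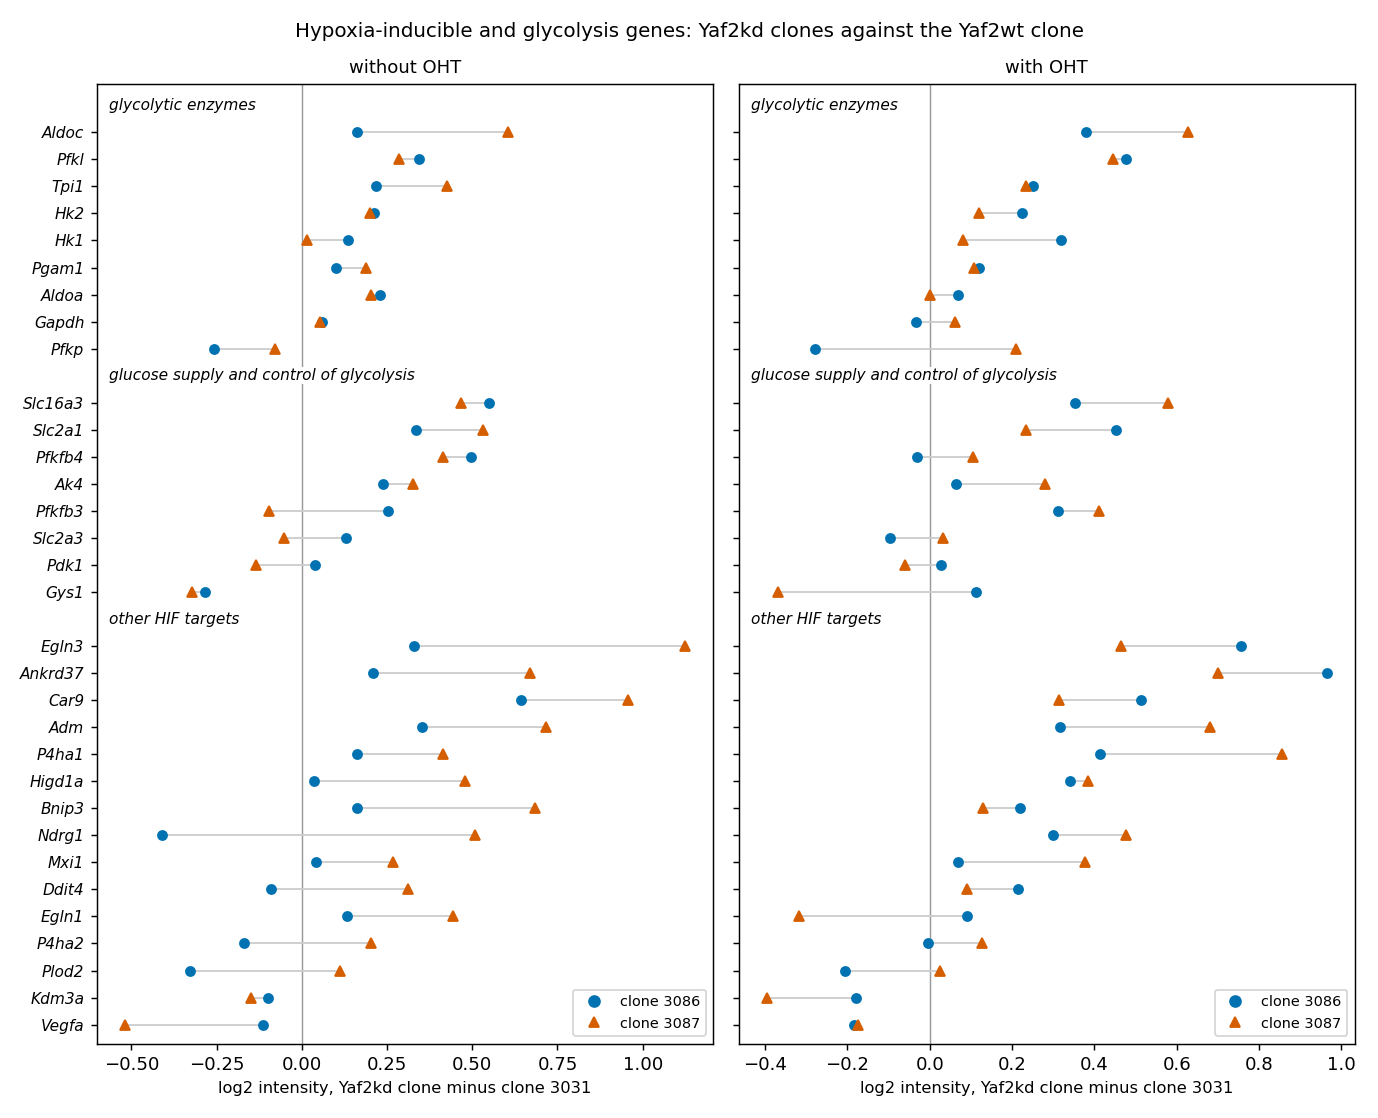
Log2 difference in intensity (x axis) of each Yaf2kd clone from Yaf2wt clone 3031 for the 32 members (rows, grouped by list), without OHT on the left and with OHT on the right. Blue circles are clone 3086 and orange triangles clone 3087, 1 array each; most points lie to the right of 0, with 21 members to the right in both clones without OHT and 20 with OHT.

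Among the glycolytic enzymes, Pfkl, the liver-type phosphofructokinase of the committing step, was at 3930.3 in clone 3031 against 4989 and 4788 in clones 3086 and 3087 without OHT, and at 3589 in clone 3031 against 4992 and 4889.8 in clones 3086 and 3087 with it. Clone 3031 was the lowest in both states, by 0.31 ± 0.13 (adjusted p 1.00) without OHT and 0.46 ± 0.13 (adjusted p 0.861) with it. The brain-type aldolase gene Aldoc was at 979.9 in clone 3031 against 1095 and 1492 in clones 3086 and 3087 without OHT, and at 929.8 in clone 3031 against 1209 and 1438 in clones 3086 and 3087 with it. The order of the 3 clones was the same in both states, and the difference with OHT was 0.50 ± 0.22 (adjusted p 0.861). Hk2, an inducible hexokinase that traps glucose in the cell, was at 4979 in clone 3031 against 5769 and 5716 in clones 3086 and 3087 without OHT, and the Yaf2kd clones were close together above clone 3031. Tpi1, the triose phosphate isomerase, was at 8753 in clone 3031 against 10168 and 11754 in clones 3086 and 3087 without OHT and also lowest in clone 3031 with it, at differences of 0.32 ± 0.14 and 0.24 ± 0.14. By their brightest probe sets Hk1 and Pgam1 lay on the same side with differences of at most 0.20. The second Hk1 probe set had Yaf2kd clones on both sides without OHT, at 419 in clone 3031 against 502 and 341. With OHT it was higher in both, by 0.59. Aldoa was higher in both clones only without OHT (0.22 ± 0.14), and Gapdh, read by a probe set near the top of the scale, differed by 0.056 and 0.015.

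By the brightest probe sets, the platelet-type phosphofructokinase gene Pfkp was the 1 enzyme that lay below clone 3031 in both Yaf2kd clones without OHT. Its values were 2878 in clone 3031 against 2405 and 2726 in clones 3086 and 3087, a difference of -0.17 ± 0.21 (adjusted p 1.00), and with OHT the clones lay on both sides. The second Pfkp probe set had the same sign without OHT. The third lay the other way there, at 407 in clone 3031 against 472 and 581 in clones 3086 and 3087.

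Of the genes of glucose supply, Slc2a1, the basal glucose transporter GLUT1, was at 8014 in clone 3031 against 10115 and 11574 in clones 3086 and 3087 without OHT and at 9019.8 in clone 3031 against 12342 and 10599 in clones 3086 and 3087 with it. All 4 Yaf2kd values were above both Yaf2wt values, with differences of 0.43 ± 0.16 (adjusted p 1.00) and 0.34 ± 0.16 (adjusted p 0.861). Its 3 probe sets had the same sign in both states. Slc2a1 and Pfkl were singled out after their values were seen. Slc16a3, which exports lactate, was at 422 in clone 3031 against 617 and 583 in clones 3086 and 3087 without OHT and at 341 in clone 3031 against 435 and 509 in clones 3086 and 3087 with it, so that clone 3031 was lowest in each state; the differences were 0.51 ± 0.23 (adjusted p 1.00) and 0.47 ± 0.23 (adjusted p 0.861). Pfkfb4, whose product makes the activator of phosphofructokinase, was at 153 in clone 3031 against 216 and 204 in clones 3086 and 3087 without OHT (0.46 ± 0.35, adjusted p 1.00), and with OHT the clones did not separate. Pfkfb3, of the same family, was higher in both Yaf2kd clones only with OHT by its brightest probe set (0.36 ± 0.28, adjusted p 0.916). Its dimmer probe set was higher in both clones in both states. Slc2a3, a high-affinity glucose transporter, and Pdk1, which holds back pyruvate dehydrogenase, differed between their probe sets. The brightest of each had Yaf2kd clones on both sides of clone 3031 in both states. The 2 dimmest Slc2a3 probe sets were higher in both Yaf2kd clones in both states, with mean differences of 0.14 to 0.37. The 2 dimmest Pdk1 probe sets were lower in both clones in both states, with mean differences of -0.34 to -0.029. The remaining probe set of each had clones on both sides without OHT and was higher in both with it. Gys1, the glycogen synthase, was at 721 in clone 3031 against 592 and 577 in clones 3086 and 3087 without OHT, lower in both Yaf2kd clones (-0.30 ± 0.25, adjusted p 1.00). The mean of its 2 probe sets gave 0.0041 in place of that value.

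The oxygen sensor gene Egln3 was at 366 in clone 3031 against 461 and 798 in clones 3086 and 3087 without OHT, and at 375 in clone 3031 against 634 and 518 in clones 3086 and 3087 with it. Both Yaf2kd clones were above clone 3031 in each state, though which of them was higher changed, and the differences were 0.73 ± 0.33 (adjusted p 1.00) and 0.61 ± 0.33 (adjusted p 0.863). A dimmer second Egln3 probe set had differences of -0.033 and 0.18. Egln1, the main sensor, was at 446 in clone 3031 against 489 and 606 in clones 3086 and 3087 without OHT, and its 2 probe sets did not have the same sign in either state. Bnip3, a receptor for the removal of mitochondria, was at 4019.7 in clone 3031 against 4495 and 6462 in clones 3086 and 3087 without OHT and at 4825 in clone 3031 against 5617 and 5277 in clones 3086 and 3087 with it, with clone 3087 standing apart only without OHT. Higd1a, a mitochondrial inner-membrane protein of the hypoxia response, was at 4132 in clone 3031 against 4238 and 5763 in clones 3086 and 3087 without OHT and was lowest in clone 3031 in both states. Its dimmer second probe set was highest in clone 3031 without OHT, at 226 against 215 and 191. For the probe sets shared by Bnip3l and its pseudogene, the brightest was at 4136, 3867 and 4124 without OHT in the same order of clones, and at 4628, 4072 and 4434 with it, with clone 3031 the highest. The dimmer ones had mean Yaf2kd differences on the higher side. These were 0.011 and 0.14 without and with OHT for the second, and 0.15 and 0.19 for the third.

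Car9, the membrane carbonic anhydrase used as a marker of hypoxia, was at 73.9 in clone 3031 against 115 and 144 in clones 3086 and 3087 without OHT and at 91.1 in clone 3031 against 130.1 and 113 in clones 3086 and 3087 with it. Its difference without OHT, 0.80 ± 0.47 (adjusted p 1.00), was the largest of the members there, but the Yaf2wt values are under the dim limit, so the size is uncertain. The vasodilator peptide gene Adm was at 275 in clone 3031 against 351 and 452 in clones 3086 and 3087 without OHT and at 278 in clone 3031 against 346 and 446 in clones 3086 and 3087 with it. Its 3 clones kept 1 order in both states, at 0.53 ± 0.29 (adjusted p 1.00) and 0.50 ± 0.29 (adjusted p 0.881), and its second probe set had the same sign. Vegfa, the main vessel growth factor, lay the other way, at 795 in clone 3031 against 735 and 555 in clones 3086 and 3087 without OHT and 916 in clone 3031 against 807 and 812 in clones 3086 and 3087 with it (-0.32 ± 0.22, adjusted p 1.00, and -0.18 ± 0.22, adjusted p 0.963). Clone 3031 was the highest in each state by this probe set. In the dimmer second Vegfa probe set the Yaf2kd clones lay on both sides of clone 3031 in both states. It was at 191 in clone 3031 against 161 and 238 without OHT, and at 228 against 192 and 242 with it. The histone demethylase gene Kdm3a was also highest in clone 3031, at 2950.4 in clone 3031 against 2755 and 2659 in clones 3086 and 3087 without OHT and 3586 in clone 3031 against 3165 and 2725 in clones 3086 and 3087 with it, by -0.12 ± 0.15 (adjusted p 1.00) and -0.29 ± 0.15 (adjusted p 0.861).

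P4ha1, a catalytic subunit of collagen prolyl hydroxylase, was at 689 in clone 3031 against 772 and 918 in clones 3086 and 3087 without OHT and at 696 in clone 3031 against 927 and 1259 in clones 3086 and 3087 with it. The clones did not change order, and with OHT the difference was 0.63 ± 0.23 (adjusted p 0.861). Its second probe set had the same sign. By their brightest probe sets the related P4ha2 and the lysyl hydroxylase gene Plod2 had Yaf2kd clones on both sides of clone 3031 in both states. The second Plod2 probe set was lower in both Yaf2kd clones in both states. It was at 1167 in clone 3031 against 1058 and 958 without OHT, and at 1282 against 1130 and 1162 with it. Ankrd37, an ankyrin-repeat gene bound by HIF1, was at 235 in clone 3031 against 272 and 374 in clones 3086 and 3087 without OHT and at 249.6 in clone 3031 against 487 and 406 in clones 3086 and 3087 with it. The Yaf2kd clones were higher in both states, and the difference with OHT, 0.83 ± 0.30 (adjusted p 0.861), was the largest of the members there. Mxi1, a Myc antagonist, lay above clone 3031 in both clones in both states by 0.15 and 0.22. By their brightest probe sets Ndrg1, a stress-response gene, and Ddit4, an inhibitor of mTORC1, were higher in both clones only with OHT. The second and the dimmest Ndrg1 probe sets were higher in both clones without OHT too, by 0.44 and 0.81. The remaining Ndrg1 probe sets had Yaf2kd clones on both sides there.

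The members were not spread evenly over the arrays. The Yaf2kd OHT- array of clone 3087 was the highest of the 6 for 10 of the 32 members (31.2%), against 18.8% of genes above the dim limit. These were Car9, Egln1, Egln3, Bnip3, Aldoc, Tpi1, Pgam1, Adm, Higd1a and Ddit4. The lowest value of the 6 was on a Yaf2wt array for 21 members (65.6%), against 36.3% of genes. Without OHT the median member difference was 0.15 in clone 3086 and 0.30 in clone 3087, and with OHT 0.22 and 0.17. Of the 8 embryonic stem cell markers 4 (50%) were lower and 0 higher in both Yaf2kd clones in both states. Of the 12 fibroblast markers, 5 of which have a mean under the dim limit, 4 (33.3%) were higher and 1 (8.33%) lower. Of genes above the dim limit 20.6% were higher and 14.8% lower. The part of these markers in the member differences was not tested.

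The OHT comparison sets the treated arrays of the 3 clones against the untreated ones. limma called 62 of 18194 genes (0.341%), 49 higher and 13 lower, and 0 of the 32 members; at an unadjusted p under 0.05 there were 1897 genes and 8 members. With the clone as a block, which uses that the OHT+ and OHT- arrays of a number are the same clone, 108 genes (0.594%) and 2 members passed, Ndrg1 and Pfkp. With the dim genes left out 132 of 10916 genes (1.21%) passed, with Ndrg1 the 1 member among them. By side, 10 of 32 members (31.2%) were higher with OHT in all 3 clones, against 18.2% of genes above the dim limit, and 3 of 32 (9.38%) were lower, against 20.3%. Of the 10, 7 are other HIF targets: Ndrg1, P4ha2, Plod2, Ankrd37, Vegfa, P4ha1 and Kdm3a. The others are Pfkp, Ak4 and Pdk1, and the 3 lower genes are Gys1, Slc16a3 and Tpi1. In both remaining clones, 12 members (37.5%) were higher without clone 3031, against 28.2% of genes, 12 without clone 3086, against 29.2%, and 16 (50%) without clone 3087, against 26.9%. With the mean of all probe sets 11 members were higher in all 3 clones, against 17.9% of genes, with Hk1 added, and 4 were lower, against 18.7%: Pfkl, Slc16a3, Gys1 and Adm, without Tpi1.

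The lists differed in their medians with OHT: 0.0044 for the glycolytic enzymes, -0.028 for glucose supply and control, and 0.098 for the other HIF targets, against -0.0031 over all genes. Over the 15 other HIF targets, clones 3031, 3086 and 3087 had medians of 0.086, 0.29 and 0.035. The 0 calls among members in the fit without the block do not show that the members were unaffected.

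**Figure D2:**
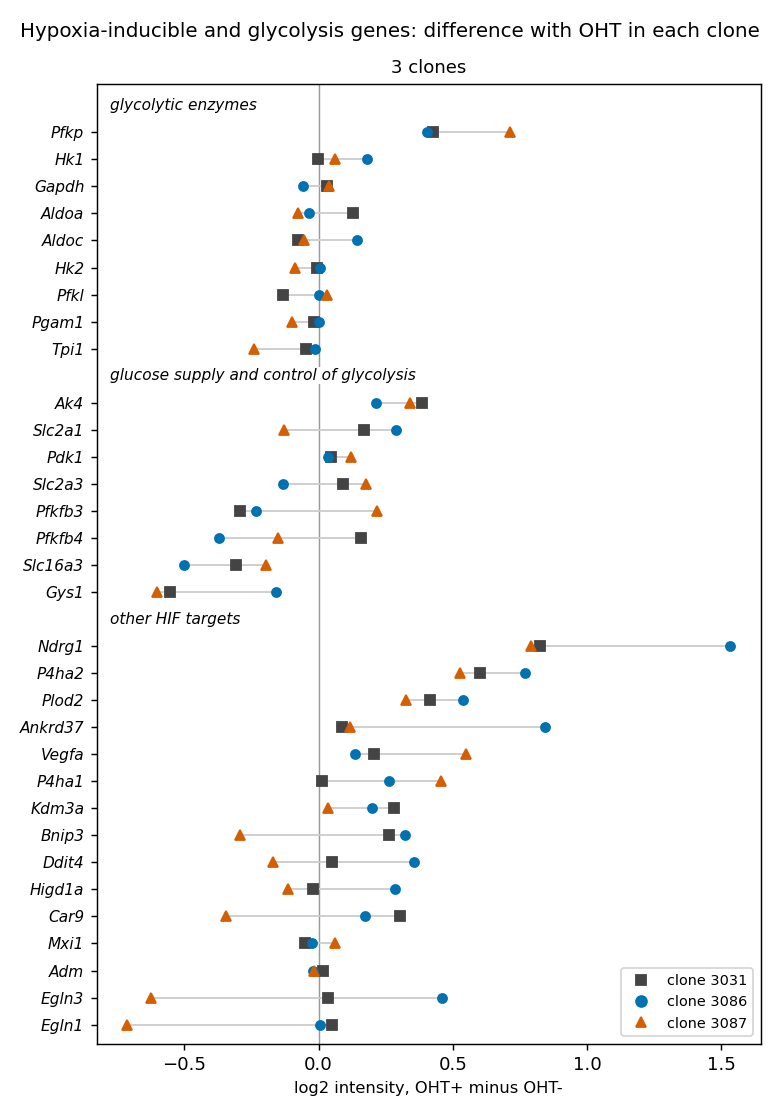
Log2 difference in intensity between the OHT+ and OHT- arrays (x axis) of each clone for the 32 members (rows, grouped by list and ordered by their mean). Squares are Yaf2wt clone 3031, circles Yaf2kd clone 3086 and triangles Yaf2kd clone 3087; 10 members lie right of 0 in all 3 clones and 3 lie left of it, and Ndrg1, at 0.82, 1.53 and 0.79, stands farthest right.

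Ndrg1 had the largest difference of the members. Its intensities in clones 3031, 3086 and 3087 were 419.9, 316 and 597 without OHT and 743, 915 and 1034 with it. Every treated array was above every untreated one. The mean difference was 1.05 ± 0.21, a 2.07-fold higher signal, with an adjusted p of 0.103 without the block and 0.0203 with it. Each of its 5 probe sets was higher with OHT in each clone, by means of 0.55 to 1.05. In clones 3031, 3086 and 3087 the difference was 0.82, 1.53 and 0.79. Leaving out clone 3031 gave an adjusted p of 0.422, in a fit with no clone term. Leaving out clone 3086 or clone 3087 leaves 1 array a group, where Yaf2 status is also the clone, so these fits are not comparable.

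Of the collagen-modifying enzymes, P4ha2 was at 348, 309.5 and 401 without OHT and 528, 527 and 577 with it in the same order of clones. The treated and untreated arrays did not overlap, at 0.63 ± 0.15 (adjusted p 0.159, and 0.0869 with the block). Plod2, which hydroxylates lysines for collagen cross-links, was at 1506, 1201 and 1629 without OHT and 2009, 1742 and 2044 with it. All 3 clones were higher and the groups did not overlap, at 0.43 ± 0.12 (adjusted p 0.241, and 0.0771 with the block). Its second probe set was higher in all 3 clones too, by a mean of 0.17. In clones 3031, 3086 and 3087 the difference was 0.60, 0.77 and 0.53 for P4ha2 and 0.42, 0.54 and 0.33 for Plod2. Leaving out clone 3031 gave adjusted p of 0.536 and 0.611, in a fit with no clone term. Without clone 3086 or 3087 the fit has 1 array a group and Yaf2 status is also the clone, so these fits are not comparable. P4ha1 was higher in the Yaf2kd clones and close to equal in clone 3031, at 689, 772 and 918 without OHT and 696, 927 and 1259 with it, a difference of 0.24 ± 0.15 (adjusted p 0.615).

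Collagen-modifying enzymes are also expressed by fibroblasts, and the labels allow fibroblast feeders in the cultures. Of the 12 fibroblast markers 6 (50%) were higher with OHT in all 3 clones, against 18.2% of genes above the dim limit. Lower were 0, against 20.3%. The median marker difference was 0.21, 0.31 and 0.34 in clones 3031, 3086 and 3087. Pdgfrb had the largest mean difference of the markers. It was at 73.4, 101 and 61.4 without OHT, under the dim limit, and at 169, 254 and 172 with it. The summed intensity of the 12 markers was 9767 to 12870 without OHT and 11720 to 12550 with it. Most of this is Fn1, and the sum of the other 11 was 1402 to 1699 without OHT and 1698 to 2435 with it. Of the markers 5 had a mean under the dim limit, Col3a1, Dcn, Lum, Prrx1 and Twist2, and none is listed at 0. Their part in the collagen-enzyme differences was not tested. In bulk RNA, more cells of a type and more RNA per cell cannot be told apart.

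Pfkp was the 1 glycolytic enzyme on the higher side in every clone. Its intensities were 2878, 2405 and 2726 without OHT and 3862, 3181 and 4469 with it. The treated arrays were all above the untreated ones, at 0.51 ± 0.12 (a 1.43-fold higher signal, adjusted p 0.159 without the block and 0.0401 with it). All 3 of its probe sets were higher in all clones, by means of 0.47 to 0.55. In clones 3031, 3086 and 3087 the difference was 0.42, 0.40 and 0.71. Without clone 3031 the adjusted p was 0.519, in a fit with no clone term. Without clone 3086 or 3087 the fit has 1 array a group and Yaf2 status is also the clone, so these fits are not comparable. The other phosphofructokinase, Pfkl, was at -0.033 ± 0.079. The remaining enzymes had differences between -0.10 and 0.081: Tpi1, lower in all 3 clones by its brightest probe set and not by the other 2, was at -0.10 ± 0.084 (adjusted p 0.727), from 8753, 10168 and 11754 without OHT to 8464, 10063 and 9957 with it. For Gapdh the difference was 0.005 ± 0.081, for Aldoa 0.0044 ± 0.082 and for Hk2 -0.03 ± 0.077.

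Among the genes of supply and control, Ak4, a mitochondrial adenylate kinase, was at 742, 875 and 930.2 without OHT and 969.8, 1014 and 1178 with it. It was higher in each clone, at 0.31 ± 0.11 (adjusted p 0.347), and 3 probe sets above the dim limit agreed. Gys1 was at 721, 592 and 577 without OHT and 491, 530.1 and 380.2 with it, lower in each clone (-0.44 ± 0.15, adjusted p 0.347), while its second probe set was higher in clone 3031. Slc16a3 was at 422, 617 and 583 without OHT and 341, 435 and 509 with it. Its groups overlapped across clones but each clone was lower with OHT (-0.34 ± 0.14, adjusted p 0.435). Pdk1 was higher in each clone by 0.034 to 0.12, but 2 of its 4 probe sets above the dim limit were not, with means of 0.011 and -0.13, and Slc2a1 at 0.11 ± 0.092 was higher in clones 3031 and 3086 and lower in clone 3087. Pfkfb3, Pfkfb4 and Slc2a3 also had clones on both sides of 0.

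Of the other HIF targets, Ankrd37 was at 235, 272 and 374 without OHT and 249.6, 487 and 406 with it. It was higher in each clone, mainly in clone 3086, at 0.35 ± 0.19 (adjusted p 0.573). Vegfa was at 795, 735 and 555 without OHT and 916, 807 and 812 with it, each treated array above each untreated one, at 0.30 ± 0.13 (adjusted p 0.476). Kdm3a was higher in each clone by 0.035 to 0.28. By their brightest probe sets Egln3, Bnip3, Car9, Slc2a1, Higd1a and Ddit4 were lower with OHT in clone 3087 and, other than Higd1a in clone 3031 (-0.019), higher in clones 3031 and 3086. Bnip3, with 1 probe set above the dim limit, was at 4019.7, 4495 and 6462 without OHT and 4825, 5617 and 5277 with it. Egln3 was at 366, 461 and 798 without OHT and 375, 634 and 518 with it, but its dimmer second probe set was higher with OHT in all 3 clones, by 0.27, 0.67 and 0.28. The 2 Egln1 probe sets did not match: in clones 3031, 3086 and 3087 the brighter was at 0.050, 0.0057 and -0.71 and the other at -0.63, 0.92 and -0.44. The brightest probe sets of Adm and Mxi1 were within 0.061 of 0 in each clone, while the second Adm probe set was lower with OHT in all 3, at -0.32, -0.17 and -0.63. The brightest probe set shared by Bnip3l and its pseudogene was higher in each clone by 0.075 to 0.16. The second was also higher in each, by 0.0040 to 0.25. The third was at -0.049, 0.19 and -0.21 in clones 3031, 3086 and 3087.

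**Figure D3:**
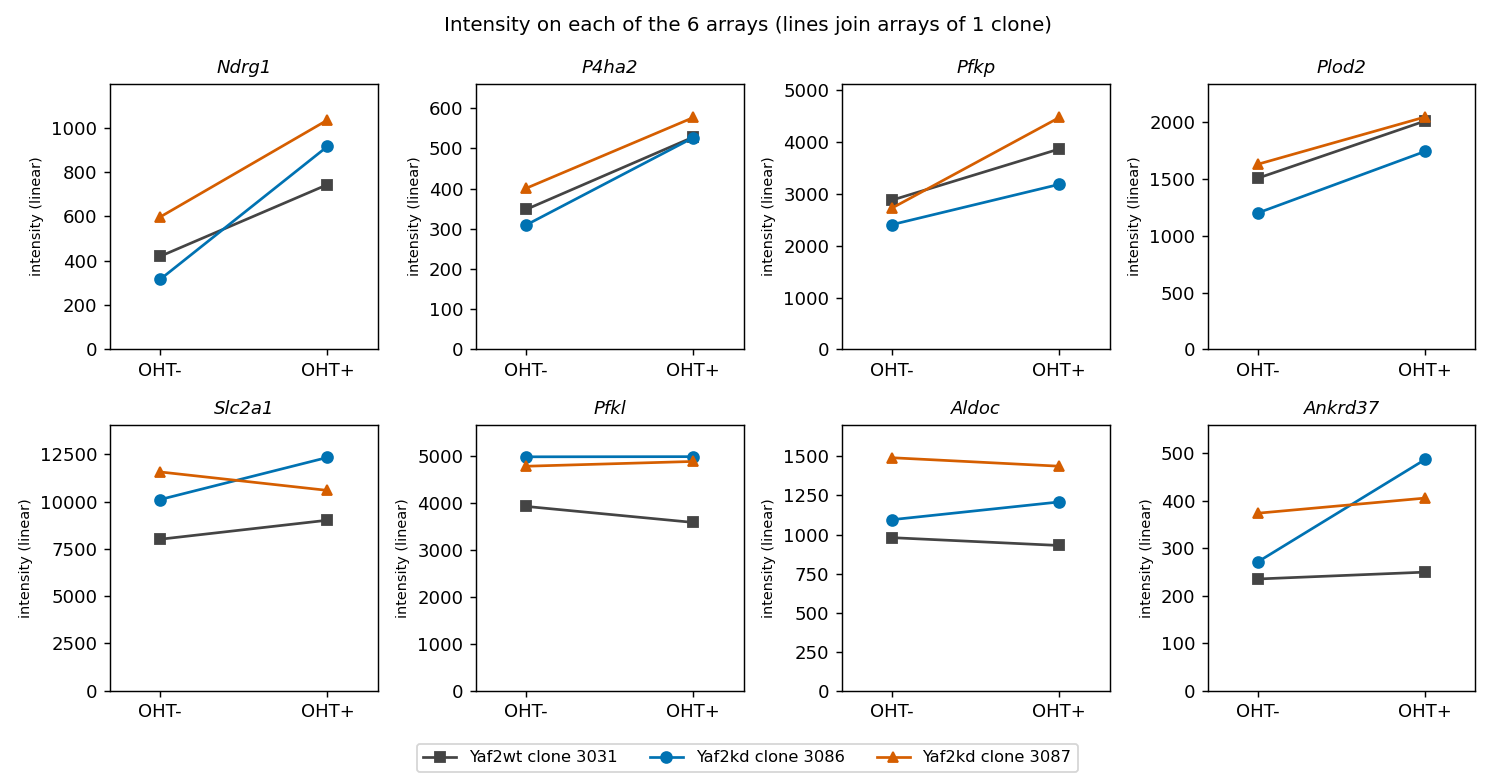
Linear intensity (y axis, from 0) of 8 members on each of the 6 arrays, without OHT on the left of a panel and with OHT on the right; lines join the 2 arrays of a clone. Ndrg1, P4ha2, Pfkp and Plod2 slope upward in all 3 clones, while Slc2a1, Pfkl, Aldoc and Ankrd37 have the Yaf2wt clone at the bottom in both states.

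**Figure D4:**
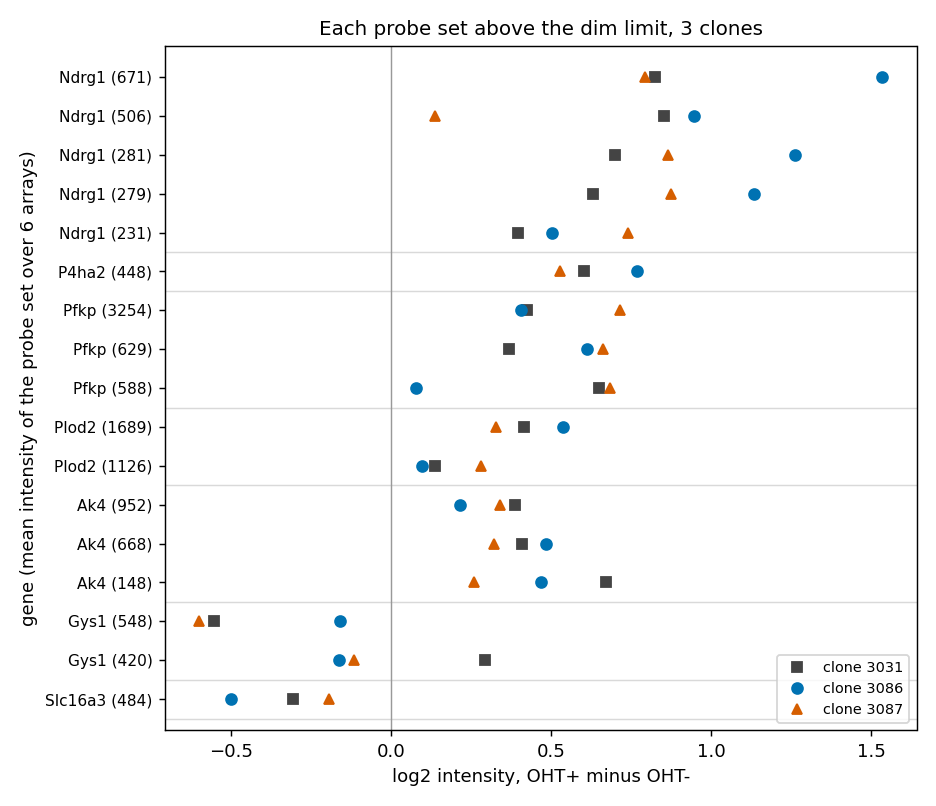
Log2 difference between OHT+ and OHT- arrays (x axis) for each probe set above the dim limit of 7 members, with its mean intensity in brackets and 1 point per clone. All 5 Ndrg1, 3 Pfkp, 2 Plod2 and 3 Ak4 probe sets lie right of 0 in all clones, and the 2 Gys1 probe sets disagree in clone 3031.

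In the Yaf2kd cells alone, 2 OHT+ arrays against 2 OHT- arrays, limma called 10 genes (0.055%), all higher, and 0 members; 1371 genes and 4 members (Ndrg1, Pfkp, P4ha2 and Plod2) had an unadjusted p under 0.05. With the clone as a block 91 genes (0.5%) passed, and Ndrg1 was the 1 member among them: 1.16 ± 0.28 in the fit without the block (adjusted p 0.444), and an adjusted p of 0.00417 with it. P4ha2 was at 0.65 ± 0.21, Pfkp at 0.56 ± 0.17, Ankrd37 at 0.48 ± 0.25 and Plod2 at 0.43 ± 0.17, with adjusted p between 0.444 and 0.72 for the 5. On the lower side Gys1 was at -0.38 ± 0.21, Slc16a3 at -0.35 ± 0.19, Pfkfb4 at -0.26 ± 0.29, Tpi1 at -0.13 ± 0.12 and Aldoa at -0.057 ± 0.11. These 4 arrays are part of the comparison over the 3 clones and do not repeat it independently. In the Yaf2wt clone, 1 array against 1 with no replicate, 21 of 32 members (65.6%) were higher with OHT, against 45.9% of genes above the dim limit; it was 21 members in clone 3086, against 49.1%, and 16 (50%) in clone 3087, against 50.7%. In the Yaf2wt clone they included Ndrg1 (0.82), P4ha2 (0.60), Pfkp (0.42), Plod2 (0.42) and Ak4 (0.39), and the lowest was Gys1 (-0.55).

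Whether the OHT effect depended on Yaf2 status was tested as the difference of the 2 effects. limma called 0 of 18194 genes (0%), 409 with an unadjusted p under 0.05, and no member was among either. The member differences ran from -0.42 (Pfkfb4) to 0.39 (Ankrd37), with a median of -0.0068, against 0.028 over all genes. On the higher side with both Yaf2kd clones above the Yaf2wt clone were Ankrd37 (0.39 ± 0.43), P4ha1 (0.35 ± 0.33), Pfkfb3 (0.28 ± 0.39), Pfkl (0.15 ± 0.19) and Hk1 (0.12 ± 0.27). On the lower side were Pfkfb4 (-0.42 ± 0.50), Egln1 (-0.40 ± 0.38), Car9 (-0.39 ± 0.66), Aldoa (-0.18 ± 0.19) and Kdm3a (-0.16 ± 0.21). The intervals are wide: for Ndrg1 the difference was 0.34, with a 95% interval of -0.77 to 1.45, so an equal effect and one more than a log2 unit larger both lie inside it.

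Genes of the same pathway that are no members were read from lists chosen by function. The HIF machinery list holds 14 genes with the alpha subunits, Arnt, Vhl and cofactors. In both Yaf2kd clones in both states 3 (21.4%) were higher, against 20.6% of genes above the dim limit: Hif3a, Cul2 and Eloc. Lower were 4 (28.6%), against 14.8%: Arnt, Hif1an, Ep300 and Crebbp. With OHT 0 were higher in all 3 clones, against 18.2%, and 6 (42.9%) were lower, against 20.3%. The 6 are Epas1, Arnt, Egln2, Crebbp, Cited2 and Eloc. None of the 14 was called; Hif1a, the main alpha subunit, was at -0.12 ± 0.082 with OHT, and Cited2, which competes with HIF for a coactivator, at -0.36 ± 0.13. Of the 18 measured of 22 remaining glycolytic and pyruvate genes, 8 (44.4%) were higher in both Yaf2kd clones in both states, against 20.6%. Lower were 2 (11.1%), against 14.8%. The shares are unlike in that only 16 of the 18 have a mean above the dim limit. Hk3 and Pgam2 lie under it, and Hk3 is 1 of the 8. Ldha, which makes lactate, was at 11047, 14087 and 15611 without OHT and 10115, 14087 and 14355 with it, so that all 4 Yaf2kd arrays were above both Yaf2wt arrays (0.42 ± 0.14 and 0.49 ± 0.14, adjusted p 1.00 and 0.861). With OHT, Eno3, the muscle-type enolase gene, fell by 0.81 ± 0.10 (adjusted p 0.00905), from 1011, 1307 and 1267 without OHT to 596, 717 and 725 with it, and was the 1 gene of the pathway lists that was called. Pgm2 was at 0.48 ± 0.13 and Pdk3 at 0.24 ± 0.11. Of 12 genes of oxidative metabolism 1 (8.33%), Cox6c, was higher in both Yaf2kd clones in both states, against 20.6%. Without OHT it was also 1, against 34.9%. With OHT it was 9 (75%), against 41.7% of genes above the dim limit and 66.7% of the glycolytic enzymes.

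**Figure D5:**
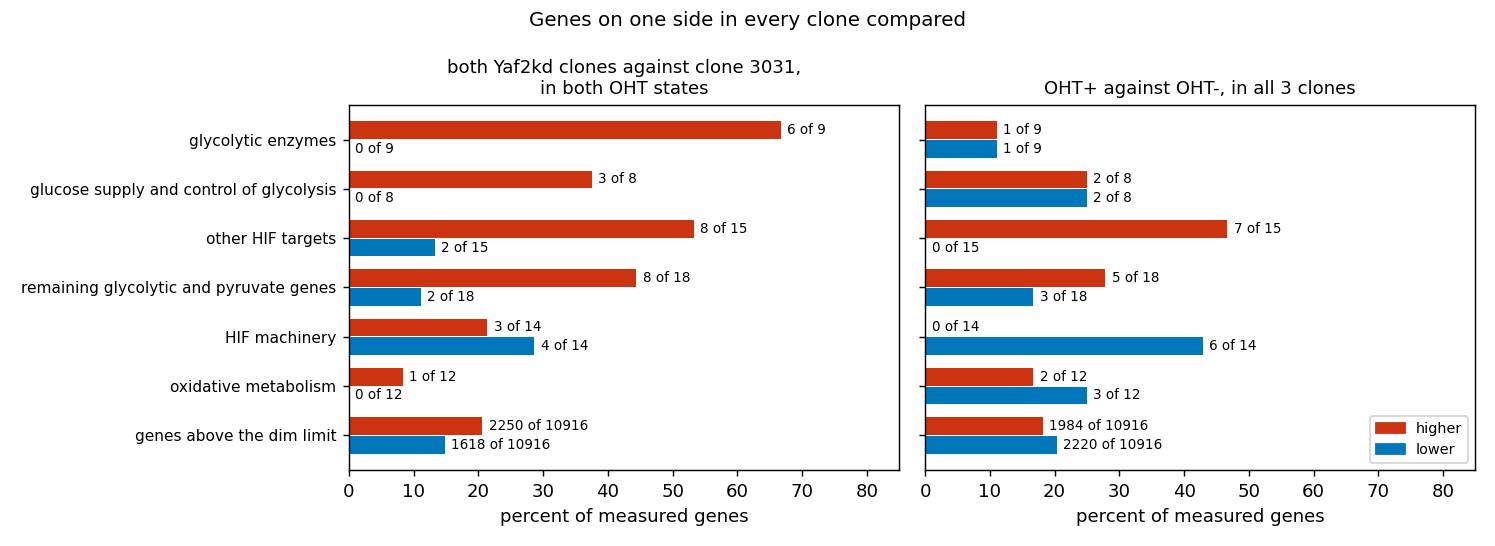
Percent of the measured genes of each list (rows) that were higher (red) or lower (blue) in both Yaf2kd clones than in clone 3031 in both OHT states (left) and with OHT in all 3 clones (right), with the counts beside the bars. The 3 member lists have 6 of 9, 3 of 8 and 8 of 15 genes higher on the left, where 20.6% of the 10916 genes above the dim limit are, and the other HIF targets have 7 of 15 higher on the right, where 18.2% are.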

How the data were processed

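Total RNA of 6 cultures was labelled as biotin-cRNA and read on Affymetrix mouse arrays. The authors deposited 1 table of probe-set intensity values; Affymetrix Expression Console and RMA were used, per the submitters' processing notes, which give no version or setting here. The deposited intensity runs from 0.140 to 45795 with a median of 102, and the sorted values are identical on all 6 arrays, so it was taken as normalized linear intensity and its log2 was analysed with no pseudocount added. The design text gives the array as 430A 2.0, but 45101 probe sets were deposited, of which 34958 have 1 gene symbol, 932 several and 9211 none in the annotation; its identifiers matched the gene reference for 99.4% of the first. The brightest probe set stood for each gene. Arrays give no read depth, and their number limits the precision.

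limma 3.58.1 in R 4.3.3 (lmFit, then eBayes with an intensity trend, since the spread falls with signal) was fitted to all 18194 genes, with Benjamini-Hochberg adjustment and a threshold of 0.05. The Yaf2 effects, the OHT effect in Yaf2kd and the difference of OHT effects were contrasts of a 4-group model (2 residual degrees of freedom, all from the Yaf2kd pairs, so a Yaf2wt array is taken to vary as much as they do). The OHT effect over 3 clones came from Yaf2 status and OHT (3 residual degrees of freedom). The fits were also run on simulated arrays with independent noise and shifts of 1 or 2 (log2) in brighter genes. That simulation held no clone component and no smaller shifts, so it cannot show how the fits handle either. Arrays of 1 number are the same clone, per the labels, and the deviations of the Yaf2kd clones without and with OHT correlated at r 0.134 across 10916 genes, so clone was also fitted as a block. Nothing says that cultures were repeated within a clone, so the p-values reflect no more than the spread among these 6 arrays.

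The members, lists, tests and alternatives were chosen with earlier results of these data known. Values are given for members past the threshold and for up to 5 per direction with the largest difference, not dim in both groups and on 1 side in every clone (3 for genes that are no members). Some pathway genes are not reported here. Promoter windows were searched for motifs on both strands.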

Additional observations from a re-analysis of the deposited data

How the results depend on the processing

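The number of arrays and, for dim genes, signal over background limit these results. For the OHT effect over 3 clones the 62 genes called became 0 with a constant prior variance, 132 with the dim genes left out, 41 with an offset of 32, 39 with the mean of all probe sets, 108 with the clone as a replicate block, 12 without clone 3031, 210 without clone 3086, 277 without clone 3087, and 10 to 46 when 1 array was left out (14 and 10 without the Yaf2wt OHT- and OHT+ array, 15 and 26 without the first and second Yaf2kd OHT+ array, 40 without the second Yaf2kd OHT- array). The members called became 1 with the dim genes left out, 2 with the replicate block, 2 without clone 3086, 4 without clone 3087 (Ndrg1, P4ha2, Pfkp and Plod2), and 0 to 1 when 1 array was left out (1, Ndrg1, without the second Yaf2kd OHT- array). In the Yaf2kd cells the 10 calls became 0 with a constant prior variance, 43 with the dim genes left out, 91 with the replicate block and 0 to 14 when 1 array was left out (0 without either Yaf2kd OHT+ array, 5 without the first Yaf2kd OHT- array), and 1 member was called with the block. The Yaf2 effect with OHT had 1 call with the dim genes left out. The block left the Yaf2 effects and the difference of OHT effects without calls (clone as a random block, with an estimated correlation of -0.086 taken from the fit of Yaf2 status and OHT). The mean of all probe sets turned 4 differences: Gys1 without OHT to 0.0041, Aldoa in the Yaf2kd cells to 0.012, and in the difference of OHT effects Pfkl to -0.054 and Egln1 to 0.23. In alternatives chosen after seeing the data, 12, 12 and 16 members were higher with OHT without clone 3031, 3086 and 3087, in place of 10 in all 3 clones. Of 516 recomputed member differences, 501 kept direction and side of the threshold. The fits without 1 clone are not of 1 kind. Without clone 3086 or 3087 the Yaf2 term is also the clone, as in the block fit, with 1 array a group. Without clone 3031 the fit has no clone term. The counts without a clone are therefore not comparable with each other. The part of this in the changes, and any other cause of them, was not tested.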
